A study of Arabidopsis thaliana with 27 samples.

Results

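The 10 genes described here code for UDP-glycosyltransferases (UGTs) linked to defence and detoxification in *Arabidopsis thaliana*, and were chosen by their AGI locus codes. They are UGT73B1 (AT4G34138), UGT73B2 (AT4G34135), UGT73B3 (AT4G34131), UGT73B4 (AT2G15490), UGT73B5 (AT2G15480), UGT74E2 (AT1G05680), UGT76B1 (AT3G11340), UGT74F2 (AT2G43820), UGT71C1 (AT2G29750) and UGT75B1 (AT1G05560, given the older name UGT1 in the table). Of these, 9 were among the 18899 genes of the expression table, which kept genes reaching 1 CPM (the read count scaled by the size of the library) in at least 1 library. UGT71C1 was not analysed here. UGT74E2 and UGT73B4 (0 to 2 reads in every control library) and UGT73B3 (at most 0.696 CPM in control) passed that filter through treated libraries, so counts over the 9 genes are descriptions.

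RNA-seq was performed on 27 samples of leaf discs (1 cm) from 5-week-old Col-0 plants in 7 groups, all on the same wild-type background. For the treated groups 3 leaves were each pierced with 4 holes of 1 mm. On each hole 2 µl of oral secretion (OS) of *Pieris brassicae* (Pb OS), OS of *Spodoptera littoralis* (Sl OS) or water (W) were placed. Pb OS, Sl OS and W leaves were collected at 3 h and at 24 h, with 4 libraries per group except W at 3 h, which had 3. The authors state that a sample wounded and treated with water was left out as an outlier. Unwounded control leaves (4 libraries) were collected only with the 3 h samples, so that a 24 h difference from control also holds the difference in collection time. Wounding with added secretion imitates feeding by caterpillars, and the comparison of OS with W isolates what the secretion adds to the wound.

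UGTs transfer a sugar from UDP-glucose or a related donor onto small acceptor molecules, which makes these more soluble and commonly less reactive, and prepares them for storage in the vacuole. In Arabidopsis the acceptors include hormones, flavonoids, phenolic acids and foreign compounds, and many UGT genes respond at the transcript level to pathogens, oxidative stress or reactive electrophiles. Some of the genes below act on immune signals themselves: UGT76B1 glucosylates isoleucic acid, salicylic acid (SA) and N-hydroxypipecolic acid, and UGT74F2 forms SA glucose conjugates, among them the glucose ester.

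The 5 UGT73B genes lie in 2 clusters. UGT73B3, UGT73B2 and UGT73B1 follow each other in this order on the minus strand of chromosome 4, with 331 bases between UGT73B3 and UGT73B2 and 562 bases between UGT73B2 and UGT73B1 (RefSeq annotation of TAIR10.1). UGT73B5 and UGT73B4 lie on the plus strand of chromosome 2 (UGT73B4 at 6761635 to 6763500), and a longer UGT73B5 transcript reads through UGT73B4 and covers 255 of its 1672 exonic bases (6763246 to 6763500), so reads from this stretch could belong to either gene. UGT74E2 (1703002 to 1704838) and UGT75B1 (1645300 to 1647435) are on the minus strand of chromosome 1, UGT76B1 (3556554 to 3558361) on the plus strand of chromosome 3, and UGT74F2 (18152078 to 18153908) on the plus strand of chromosome 2.

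The 250 bases before the annotated start of the UGT73B genes are shown because genes of the same cluster differed in their response. The letters TGACG are known to be bound by TGA factors, which act in detoxification and SA responses. Each run is 5′ to 3′ on the gene's own strand, from RefSeq TAIR10.1, with TGACG (or CGTCA, the same motif on the opposite strand) in capitals. UGT73B1 is from chr4:16350204-16350453, UGT73B2 from chr4:16347435-16347684 and UGT73B3 from chr4:16344819-16345068 (all minus strand), UGT73B4 from chr2:6761385-6761634 and UGT73B5 from chr2:6758180-6758429 (both plus strand).
UGT73B1: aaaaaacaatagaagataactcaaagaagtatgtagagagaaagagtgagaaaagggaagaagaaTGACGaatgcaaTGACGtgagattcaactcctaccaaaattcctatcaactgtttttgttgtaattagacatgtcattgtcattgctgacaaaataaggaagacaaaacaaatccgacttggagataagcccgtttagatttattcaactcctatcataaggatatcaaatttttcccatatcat
UGT73B2: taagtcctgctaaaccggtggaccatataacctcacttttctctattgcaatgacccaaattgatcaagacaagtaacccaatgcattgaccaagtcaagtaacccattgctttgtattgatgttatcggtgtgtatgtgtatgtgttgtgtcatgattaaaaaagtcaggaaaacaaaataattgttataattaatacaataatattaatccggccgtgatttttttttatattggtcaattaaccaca
UGT73B3: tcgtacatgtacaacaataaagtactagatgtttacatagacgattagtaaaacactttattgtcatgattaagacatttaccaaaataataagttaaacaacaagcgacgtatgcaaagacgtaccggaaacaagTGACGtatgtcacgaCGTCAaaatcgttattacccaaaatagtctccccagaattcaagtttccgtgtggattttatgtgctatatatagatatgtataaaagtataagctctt
UGT73B4: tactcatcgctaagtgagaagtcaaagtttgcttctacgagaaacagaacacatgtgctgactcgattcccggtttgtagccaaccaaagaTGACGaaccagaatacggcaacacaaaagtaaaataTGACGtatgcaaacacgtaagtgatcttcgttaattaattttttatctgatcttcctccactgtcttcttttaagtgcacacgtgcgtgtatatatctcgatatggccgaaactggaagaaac
UGT73B5: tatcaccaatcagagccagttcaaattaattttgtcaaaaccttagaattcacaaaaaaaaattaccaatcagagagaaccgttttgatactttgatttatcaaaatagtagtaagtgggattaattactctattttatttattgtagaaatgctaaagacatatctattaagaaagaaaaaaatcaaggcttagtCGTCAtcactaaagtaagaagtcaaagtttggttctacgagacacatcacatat

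Between 250 bases before and 50 bases after the start, searched on both strands, TGACG was present in 4 of the 9 genes and in 23.1% of 27443 protein-coding genes. UGT73B1 had it at -185 and -173, UGT73B3 at -114 and -99, UGT73B4 at -159 and -123, and UGT73B5 at -54 (first base of the match, counted from the start). UGT73B2, which rose strongly below, had none in this window, and neither had the genes outside the UGT73B group. TTGAC, the core of the W-box bound by WRKY factors, was in 7 of the 9 genes and in 50.5% of all, and in UGT73B3 it overlapped the TGACG at -99. CACGTG was found only in UGT73B4 (7.68% of all genes) and GCCGCC in none of the 9 (2.57% of all). The mitochondrial dysfunction motif, bound by ANAC013 and related factors, was in 1.42% of all genes and among the 9 only in UGT74E2, at +14, here in capitals at chr1:1704805-1704833 on the minus strand.
UGT74E2: ccgcacatCTTGGTCGCCACGgaacatag

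Libraries held 22.5 to 31.3 M reads on genes, and 1 read was worth 0.0289 to 0.0422 CPM. A few libraries stood apart from the rest of their group. Sl OS 3 h replicate 2 was the highest of its 4 libraries for 9 of 9 genes (and for 54.2% of the 2754 genes called higher in that group), and Pb OS 3 h replicate 2 was the lowest of its 4 for 9 of 9 (65.9% of 2520 genes). Control replicate 2 was the highest control for UGT73B2, UGT73B3 and UGT76B1 (3 of 9, beside 45.7% of the 2754 genes called higher with Sl OS at 3 h). For UGT73B1, UGT74F2 and UGT75B1 it was the lowest control. This library also held 10556 reads of the SA marker PR1, against 0 to 30 reads in the other controls. As a check of the tissue, all 5 mesophyll markers were high, whereas 3 of 4 root markers and 1 of 2 flower markers were not among the genes tested, and the flower marker that was (AG) reached at most 2.49 CPM. The root marker that was (PYK10) had 1.04 to 6.38 CPM in Pb OS 3 h, 0.666 to 2.25 CPM in Sl OS 3 h and 0.202 to 0.401 CPM in W 3 h, against at most 0.165 CPM in control. The 4 summed guard cell markers (FAMA, KAT1, MYB60, HT1) were 52.2 to 91.8 CPM in Pb OS 3 h and 61.3 to 84.3 CPM in Sl OS 3 h. Their sum was 43.2 to 74.4 CPM in W 3 h and 35.1 to 49.3 CPM in control. These markers did not move together with the secretions. KAT1 averaged 46.7 CPM in Pb OS 3 h and 52.8 CPM in Sl OS 3 h, against 22.2 CPM in control, and FAMA was higher by less. MYB60 averaged lower (4.89 and 4.26 CPM, against 6.24 CPM in control), as did HT1 (2.18 and 1.82 CPM, against 2.55 CPM). The summed mesophyll markers (RBCS1A, LHCB1.3, LHCB2.1, RCA, PSBO1) were 16446 to 28653 CPM in Pb OS 3 h, 8556 to 26973 CPM in Sl OS 3 h, 41143 to 51796 CPM in W 3 h and 48011 to 74414 CPM in control, and the part of these 3 marker sets in the results at 3 h was not tested. In these bulk samples fewer cells of a type and less RNA per cell cannot be told apart.

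At 3 h, 8 of the 9 genes rose with Pb OS and all 9 with Sl OS relative to unwounded control, while 4 rose with wounding alone. By the estimated log2 change, the strongest were UGT76B1 and UGT74E2, and the weakest was UGT73B1. UGT74E2 had no read in control leaves, and UGT76B1 had 7, 99, 0 and 6 reads in control replicates 1 to 4. Calls required an adjusted p under 0.05 (limma on log2 CPM, Benjamini-Hochberg over all genes) and a log2 change from control beyond 1. Over all genes, 13.3% were called higher with Pb OS, 14.6% with Sl OS and 3.88% with W.

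**Figure D1:**
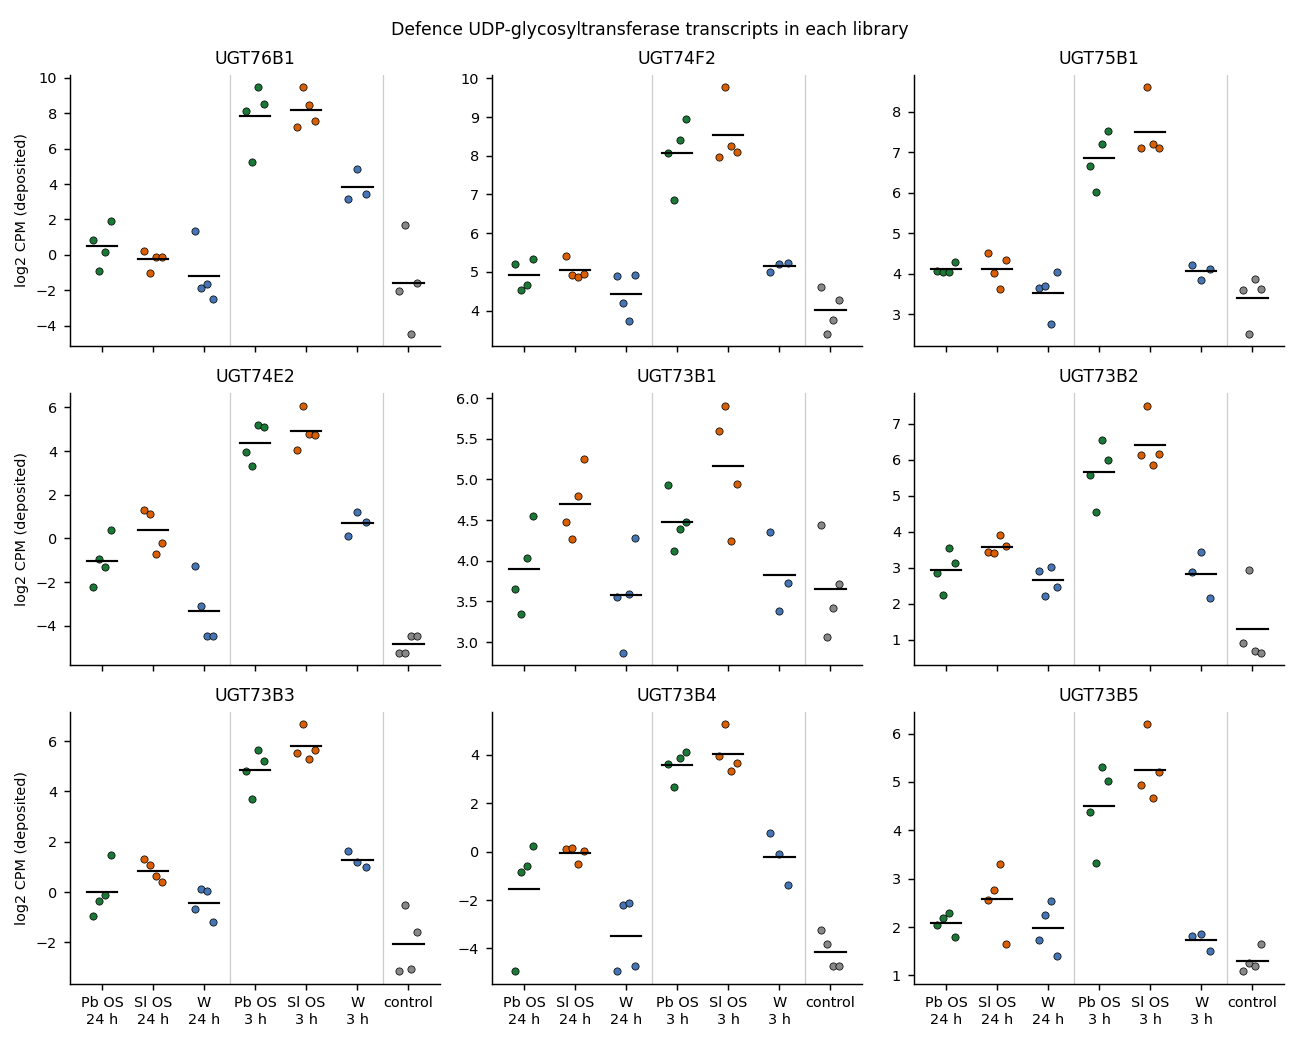
Deposited log2 CPM of the 9 genes in each of the 27 libraries, with replicates as points from left to right in number order, group means as black lines, and groups on the horizontal axis. The Pb OS and Sl OS libraries at 3 h lie above all other libraries for 8 of the 9 genes, UGT73B1 being the exception, and for 7.02% of all genes.

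UGT76B1, the enzyme of isoleucic acid, SA and N-hydroxypipecolic acid, had 280, 38.2, 716 and 363 CPM with Pb OS at 3 h, and 151, 718, 350 and 185 CPM with Sl OS. Leaves with W had 9.04, 28.7 and 10.9 CPM, and control leaves 0.241, 3.23, 0.0453 and 0.332 CPM (6, 7 and 99 reads in 3 libraries and 0 in the other). The groups did not overlap, in the order OS over W over control, although single libraries within the OS groups differed widely. Its log2 change from control was 9.45 ± 1.05 (SE) with Pb OS (limma adjusted p = 2.88e-07), 9.78 ± 1.05 with Sl OS (adjusted p = 1.33e-07) and 5.44 ± 1.13 with W (adjusted p = 0.00356). Without control replicate 2, which held most of the control reads, these changes were 10.59, 10.92 and 6.53, and without control replicate 3, which had no read, they were 8.46, 8.80 and 4.41. The change with Pb OS was 10.37 without Pb OS 3 h replicate 2 and 8.85 without replicate 3, and all these changes were still called.

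UGT74F2, which conjugates SA to glucose, started from a clear level in control leaves. It had 269, 116, 341 and 491 CPM with Pb OS at 3 h and 252, 879, 303 and 274 CPM with Sl OS. Leaves with W had 32.2, 36.6 and 37.6 CPM, and control leaves 24.5, 10.5, 13.6 and 19.2 CPM. All W libraries lay above all control libraries, but by far less than the OS libraries did. Relative to control, the log2 change was 4.06 ± 0.40 with Pb OS (limma adjusted p = 6.68e-08) and 4.52 ± 0.40 with Sl OS (adjusted p = 1.16e-08), and 1.13 ± 0.44 with W, which did not pass (adjusted p = 0.153).

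UGT75B1, which forms the glucose ester of the folate precursor p-aminobenzoate, behaved like UGT74F2. It had 101, 64.9, 146 and 184 CPM with Pb OS at 3 h and 138, 390, 146 and 138 CPM with Sl OS. It had 18.4, 14.3 and 17.5 CPM with W and 12.1, 5.72, 14.5 and 12.3 CPM in control. The OS libraries were again apart from all others, and W overlapped control in range. Its log2 change was 3.45 ± 0.36 with Pb OS (limma adjusted p = 1.2e-07), 4.10 ± 0.36 with Sl OS (adjusted p = 7.99e-09) and 0.64 ± 0.39 with W (adjusted p = 0.436). A non-coding RNA on the opposite strand, AT1G05562, covers all 2136 bases of this gene, and whether counting used the strand is not given in the sources used here. AT1G05562 moved the other way: it averaged 10.8 ± 2.80 CPM with Pb OS and 11.9 ± 2.24 CPM with Sl OS, against 24.2 ± 5.06 CPM in control (SD, n = 4 each), with log2 changes of -1.17 ± 0.19 and -1.02 ± 0.19 (limma adjusted p = 2.41e-05 and 9.28e-05).

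UGT74E2, which glucosylates the auxin indole-3-butyric acid and is known to respond to hydrogen peroxide, had no read in any of the 4 control libraries. It had 15.4, 9.9, 36.1 and 33.8 CPM with Pb OS at 3 h (336 to 860 reads), 16.4, 67.8, 27.8 and 26.7 CPM with Sl OS (604 to 3064 reads) and 1.07, 2.31 and 1.68 CPM with W (35 to 48 reads). The transcript was thus already present in every wounded library and more abundant in every OS library. Against a floor of 3 reads over the control group, it was at least 734-fold higher with Pb OS, at least 1305-fold higher with Sl OS and at least 48.4-fold higher with W, in reads scaled by library size. The limma adjusted p was 8.6e-10 with Pb OS, 2.94e-10 with Sl OS and 2.31e-05 with W.

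UGT73B3, which with UGT73B5 is known to contribute to resistance to *Pseudomonas syringae* and to redox balance, had 28.4, 12.9, 50.5 and 37 CPM with Pb OS at 3 h, and 46.6, 102, 39.4 and 50.7 CPM with Sl OS. With W it had 3.08, 2.28 and 2 CPM, and in control 0.112, 0.696, 0.12 and 0.335 CPM (2 to 16 reads). No group overlapped the next lower one apart from the pair of OS groups. The log2 change was 6.93 ± 0.56 with Pb OS (limma adjusted p = 3.27e-09), 7.87 ± 0.56 with Sl OS (adjusted p = 3.84e-10) and 3.35 ± 0.60 with W (adjusted p = 0.000862). An RNA on the opposite strand that shares 283 bases with this gene, AT4G08935, rose too, by 3.70 ± 0.61 with Pb OS and 4.60 ± 0.61 with Sl OS on the log2 scale (limma adjusted p = 3.49e-05 and 2.05e-06). It averaged 2.1 ± 1.03 and 3.63 ± 1.54 CPM against 0.143 ± 0.0333 CPM in control (SD, n = 4 each).

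UGT73B4, known for glucosylating reduced trinitrotoluene in Arabidopsis, had 12.3, 6.3, 14.8 and 17.2 CPM with Pb OS at 3 h, 15.3, 38.4, 9.97 and 12.7 CPM with Sl OS, and 1.72, 0.928 and 0.382 CPM with W. Control libraries held 2, 1, 0 and 0 reads. The rise was thus from almost nothing, and the ratio to control in scaled reads was 423 with Pb OS (95% exact counting interval 145 to 2055), 676 with Sl OS (231 to 3278) and 33.4 with W (11.1 to 165). These intervals cover counting error only. The limma adjusted p was 3.23e-07, 1.08e-07 and 0.0113.

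UGT73B5, its neighbour upstream, had 20.9, 10, 39.6 and 32.7 CPM with Pb OS at 3 h and 30.7, 73.1, 25.4 and 36.7 CPM with Sl OS. It had 3.53, 3.61 and 2.82 CPM with W and 2.12, 2.4, 2.29 and 3.12 CPM in control. Every OS library was above every W and control library, while W overlapped control. This gave log2 changes of 3.21 ± 0.38 with Pb OS (limma adjusted p = 7.65e-07), 3.95 ± 0.38 with Sl OS (adjusted p = 3.7e-08) and 0.41 ± 0.42 with W (adjusted p = 0.699).

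UGT73B2, which glucosylates flavonols, had 47.4, 23.3, 93.9 and 63.1 CPM with Pb OS at 3 h and 69.4, 181, 58.2 and 72 CPM with Sl OS. It had 7.31, 10.8 and 4.44 CPM with W and 1.87, 7.62, 1.62 and 1.56 CPM in control. Control replicate 2 lay within the W range and apart from the other controls. The estimated log2 change was 4.37 ± 0.48 with Pb OS (limma adjusted p = 2.29e-07), 5.12 ± 0.48 with Sl OS (adjusted p = 1.98e-08) and 1.51 ± 0.52 with W (adjusted p = 0.0905). Without control replicate 2 these changes were 4.95, 5.71 and 2.07, and that with W passed (adjusted p = 0.00412).

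UGT73B1, at the other end of the same cluster, differed least. It had 30.4, 17.3, 21 and 22.2 CPM with Pb OS at 3 h, 48.2, 60, 18.8 and 30.8 CPM with Sl OS, 20.5, 10.44 and 13.3 CPM with W and 21.7, 8.38, 10.7 and 13.1 CPM in control. The groups overlapped. Its log2 change from control was 1.51 ± 0.37 with Sl OS, which passed (limma adjusted p = 0.00151), 0.82 ± 0.37 with Pb OS (adjusted p = 0.0674) and 0.16 ± 0.40 with W (adjusted p = 0.902). The protein-coding gene AT4G34139 shares 1015 bases with UGT73B1 on the opposite strand and was not analysed here.

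The median log2 change of the 9 genes was 4.37 with Pb OS, 5.12 with Sl OS and 1.51 with W, whereas the median over all genes was at most 0.01 in each comparison. The direction of every called gene was the same within replicates 1 and 2 and within replicates 3 and 4. Leaving out replicate 2 of both OS groups kept 8 calls with Pb OS and 9 with Sl OS, and leaving out control replicate 2 gave 8, 9 and, with W, 5. The 4 calls with W (UGT73B3, UGT73B4, UGT74E2 and UGT76B1) were lost when 5 CPM were added before taking logs and in a voom fit of the recovered reads, and that of UGT73B4 also without W 3 h replicate 1 (log2 change 3.3) or 2. With 5 CPM added, a gene under 5 CPM cannot reach a log2 change of 1, which held for all of these but UGT76B1.

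**Figure D2:**
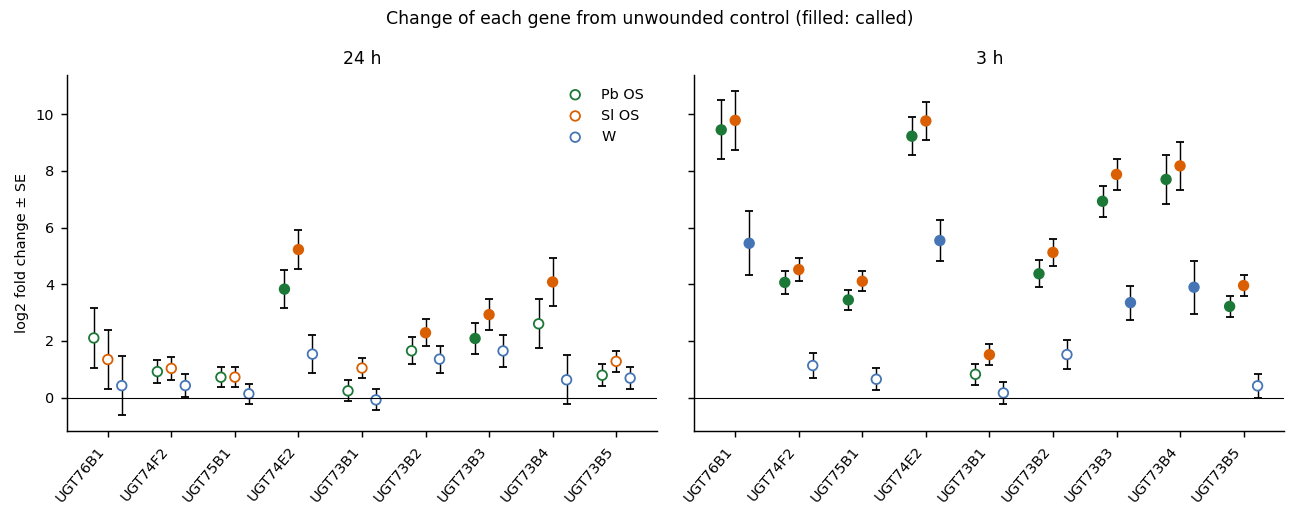
Log2 fold change from control (limma estimate ± SE) of each gene with Pb OS, Sl OS and W at 24 h on the left and at 3 h on the right, with filled circles for called changes. At 3 h, 8, 9 and 4 genes were called with Pb OS, Sl OS and W, and at 24 h 2, 4 and 0.

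Set directly against wounding with water at 3 h, 8 of the 9 genes were higher with Pb OS and all 9 with Sl OS (adjusted p under 0.05, with no minimum change). Over all genes, 11.6% were called higher with Pb OS than with W, and 14.5% with Sl OS than with W. With Pb OS, the log2 differences of the called genes ran from 2.80 for UGT73B5 and UGT75B1 to 4.00 ± 1.13 for UGT76B1 (limma adjusted p = 0.0127). With Sl OS they ran from 1.35 ± 0.40 for UGT73B1 (adjusted p = 0.0126) to 4.52 ± 0.60 for UGT73B3 (adjusted p = 2.36e-05), and the other 7 lay from 3.39 to 4.34. UGT74F2, UGT75B1, UGT73B2 and UGT73B5, for which W alone did not pass against control, were higher with OS by 2.93, 2.80, 2.85 and 2.80 with Pb OS and by 3.39, 3.46, 3.61 and 3.54 with Sl OS. UGT73B3, UGT73B4, UGT74E2 and UGT76B1, which had risen with W, were higher again with OS, by 3.58, 3.81, 3.68 and 4.00 with Pb OS and by 4.52, 4.28, 4.22 and 4.34 with Sl OS. The median difference was 2.93 with Pb OS and 3.61 with Sl OS, with medians near 0 over all genes.

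UGT73B1 was no longer called for Sl OS against W without Sl OS 3 h replicate 2, its highest library, or without W 3 h replicate 2 (adjusted p up to 0.067), and UGT76B1 was no longer called for Pb OS against W without Pb OS 3 h replicate 3 (3.38) or W 3 h replicate 1. Without Pb OS 3 h replicate 2 the difference of UGT76B1 was 4.88, and without W 3 h replicate 1 UGT73B4 differed by 4.40 for Pb OS and by 4.88 for Sl OS, all still called.

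**Figure D3:**
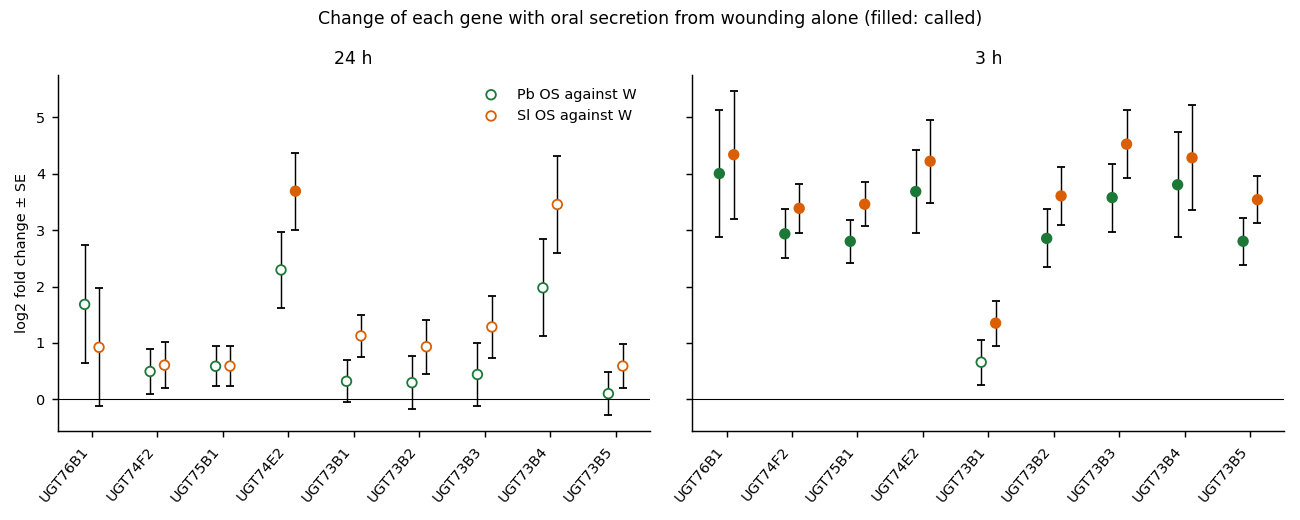
Log2 difference of OS from W (limma estimate ± SE) for each gene at 24 h on the left and at 3 h on the right, with filled circles for called differences. At 3 h the called differences lie from 1.35 to 4.52, and at 24 h only UGT74E2 with Sl OS (3.69) is filled.

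Pb OS and Sl OS were not told apart for any of the 9 genes at 3 h, nor for any gene of the table (0.0% called in either direction by limma, with 768 genes at an unadjusted p under 0.05, and 0 of the 9). The estimates were all below 0, from -0.95 ± 0.56 for UGT73B3 to -0.33 ± 1.05 for UGT76B1 on the log2 scale. Without replicate 2 of each group, the highest Sl OS and the lowest Pb OS library, they ran from -0.33 for UGT73B1 to 0.96 for UGT76B1, with 5 of 9 below 0. These libraries were chosen for their extreme values. At 24 h the estimates ran from -1.48 ± 0.86 for UGT73B4 to 0.76 ± 1.05 for UGT76B1, with 0 called, 1 of the 9 at an unadjusted p under 0.05 (UGT73B1, -0.80 ± 0.37) and 0 called by voom at either time. The SEs ran from 0.36 to 1.05 log2 units, and a missed call does not show that both secretions act alike.

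At 24 h, 2 of 9 genes were called higher than in control with Pb OS (UGT73B3 and UGT74E2) and 4 of 9 with Sl OS (UGT73B2, UGT73B3, UGT73B4 and UGT74E2). With W none was called, with 3 of 9 at an unadjusted p under 0.05 and 0 by voom. Over all genes, 1.62% were called higher with Pb OS, 2.28% with Sl OS and 1.4% with W. The median log2 change of the 9 genes was 1.65 with Pb OS, 1.34 with Sl OS and 0.62 with W, against 0.01 over all genes in each. All libraries lay above all controls for 3 of 9 genes with Pb OS and 6 of 9 with Sl OS (5.82% and 6.35% of all genes).

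UGT74E2 had 0.213, 0.521, 0.406 and 1.31 CPM with Pb OS at 24 h (7 to 27 reads) and 2.49, 2.15, 0.612 and 0.864 CPM with Sl OS (14 to 86 reads), against 13, 3, 0 and 0 reads with W and no read in control. It was at least 17.6-fold higher than control with Pb OS, at least 55.6-fold with Sl OS and at least 4.69-fold with W, of which Pb OS (limma adjusted p = 0.0015) and Sl OS (adjusted p = 2.75e-05) passed. It was also the only one of the 9 genes called between Sl OS and W at 24 h, with a log2 difference of 3.69 ± 0.68 (adjusted p = 0.0101), where 0.302% of all genes were called higher. That call was lost without Sl OS 24 h replicate 1 or replicate 2, and without W 24 h replicate 1 the difference was 4.41.

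UGT73B4 held 0, 15, 17 and 30 reads with Pb OS at 24 h and 30, 31, 20 and 28 reads with Sl OS, against 0, 5, 6 and 0 with W and 2, 1, 0 and 0 in control. All Sl OS libraries were above all W and control libraries, but 1 Pb OS library had no read. The ratio to control was 31.4 with Sl OS (95% exact counting interval 10.5 to 155), which passed (limma adjusted p = 0.00606), and 18.5 with Pb OS (6.04 to 92.1), which did not (adjusted p = 0.137).

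UGT73B3 averaged 1.24 ± 1.03 CPM with Pb OS and 1.85 ± 0.516 CPM with Sl OS at 24 h, against 0.788 ± 0.307 CPM with W and 0.316 ± 0.274 CPM in control (SD, n = 4 each). The log2 change was 2.08 ± 0.56 with Pb OS (limma adjusted p = 0.049, over 0.05 when any of 6 of the 8 libraries was left out) and 2.93 ± 0.56 with Sl OS (adjusted p = 0.00236). UGT73B2 averaged 8.10 ± 2.95, 12.1 ± 2.04, 6.41 ± 1.61 and 3.17 ± 2.97 CPM in the Pb OS, Sl OS, W and control groups (SD, n = 4 each), and passed with Sl OS, by 2.29 ± 0.48 (adjusted p = 0.00541). Its level with W was above 3 of the 4 controls. Without control replicate 2, UGT73B2 passed with Pb OS too, as the third gene there (2.23, adjusted p = 0.00246), its change with Sl OS was 2.87, and UGT73B2 and UGT73B3 passed with W (1.94 and 2.19, adjusted p = 0.0116 and 0.031).

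UGT76B1, among the strongest at 3 h, held 17 to 79 reads with Pb OS at 24 h, 16 to 40 with Sl OS, 3 to 81 with W and 0 to 99 in control, with overlapping groups (log2 change 2.1 ± 1.05 with Pb OS and 1.34 ± 1.05 with Sl OS, limma adjusted p = 0.386 and 0.545). Without control replicate 2 these changes were 3.24 and 2.48 (adjusted p = 0.085 and 0.159). UGT74F2 averaged 31.2 ± 8.37 CPM with Pb OS and 33.2 ± 6.15 CPM with Sl OS, against 22.8 ± 8.48 CPM with W and 16.9 ± 6.17 CPM in control (SD, n = 4 each). UGT75B1 averaged 17.4 ± 1.49 and 17.9 ± 4.58 CPM with Pb OS and Sl OS, against 12.1 ± 3.98 CPM with W and 11.2 ± 3.80 CPM in control (SD, n = 4 each). None of these 3 genes passed. Between Pb OS and W at 24 h 0 of the 9 genes were called by limma or voom (2 at an unadjusted p under 0.05, and 0.0423% of all genes called higher). Calls against control at 24 h were all lost when 5 CPM were added before taking logs and in the voom fit of the recovered reads. All the called genes but UGT73B2 were under 5 CPM, where a log2 change of 1 cannot be reached once 5 CPM are added.

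Between 3 h and 24 h, 8 of the 9 genes declined with each secretion, UGT73B1 being the exception (-0.58 ± 0.37 with Pb OS and -0.47 ± 0.37 with Sl OS, limma adjusted p = 0.202 and 0.301). Of all genes, 23.0% were called lower at 24 h than at 3 h with Pb OS and 24.4% with Sl OS. The fall of UGT76B1 went furthest: it averaged 1.80 ± 1.39 CPM at 24 h against 349 ± 280 CPM at 3 h with Pb OS, and 0.875 ± 0.285 CPM at 24 h against 351 ± 260 CPM at 3 h with Sl OS (SD, n = 4 each). These were log2 differences of -7.35 ± 1.05 and -8.44 ± 1.05 (adjusted p = 1.04e-05 and 1.37e-06), and with Pb OS -8.27 without Pb OS 3 h replicate 2 and -6.75 without replicate 3. For UGT73B4 with Pb OS the difference was -5.10, and -3.90 without Pb OS 24 h replicate 1 and -5.72 without replicate 4. Across the 8 genes the differences ran from -7.35 to -2.43 with Pb OS and from -8.44 to -2.68 with Sl OS. With W, 3 of 9 genes were lower at 24 h than at 3 h (3.46% of all genes): UGT76B1 (-5.03 ± 1.13, adjusted p = 0.00929), UGT74E2 (-4.01 ± 0.74, adjusted p = 0.00141) and UGT73B4 (-3.27 ± 0.93, adjusted p = 0.0435). Without W 24 h replicate 1 the differences of UGT76B1 and UGT74E2 were -5.84 and -4.69. Without W 3 h replicate 2 only UGT74E2 was still called there, and the call of UGT73B4 was lost without any of 4 of the 7 libraries (-2.68 without W 3 h replicate 1).

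Whether the secretion added as much at 24 h as at 3 h was tested as the difference between the OS against W contrasts at both times. For UGT73B2, UGT73B3, UGT73B5, UGT74F2 and UGT75B1 the added effect was smaller at 24 h. The difference, 24 h minus 3 h, was -2.56, -3.14, -2.70, -2.44 and -2.21 log2 units in this order with Pb OS (limma adjusted p 0.0117 to 0.0346, 2.47% of all genes called lower). With Sl OS it was -2.67, -3.24, -2.95, -2.78 and -2.87 (adjusted p 0.00272 to 0.0154, 6.11% of all genes called lower). For UGT73B4, UGT74E2 and UGT76B1 the estimates were also below 0 (from -3.42 ± 1.54 to -0.53 ± 1.00) and did not pass. With Pb OS the number of calls was 1 without Pb OS 3 h replicate 4, 2 without W 3 h replicate 1 or 3 or Pb OS 3 h replicate 3, and 3 without W 24 h replicate 3 or Pb OS 24 h replicate 1 or 2. With 5 CPM added, 8 genes were called with either secretion.

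Compared per kilobase of transcript, the genes fell into abundant and scarce ones, and the order changed with treatment. With Sl OS at 3 h UGT74F2 had 245 ± 173, UGT76B1 203 ± 150 and UGT75B1 123 ± 75.7 CPM per kb, and the other 6 genes averaged between 11.7 (UGT73B4) and 43.7 (UGT73B2) CPM per kb. With Pb OS UGT76B1 led with 202 ± 162 CPM per kb, followed by UGT74F2 with 174 ± 89.4 and UGT75B1 with 75.1 ± 31.5 CPM per kb. In control leaves UGT74F2 (9.71 ± 3.54), UGT75B1 (6.78 ± 2.30) and UGT73B1 (6.46 ± 2.79 CPM per kb) were highest, and UGT76B1 was sixth with 0.556 ± 0.876 CPM per kb (SD, n = 4 in each group). UGT73B1 was thus among the most abundant of the 9 in unwounded leaves and eighth in both OS groups at 3 h. Most neighbours in this order had overlapping ranges: of 8 neighbouring pairs, 7 overlapped with Sl OS (UGT75B1 over UGT73B2 did not), 8 with Pb OS and 7 in control (UGT73B1 over UGT73B2 did not).

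Of 69 other genes named UGT in the table, 28 were called higher with Pb OS at 3 h, 33 with Sl OS and 10 with W, and 7, 8 and 1 lower (14.6%, 16.3% and 0.413% of all genes were called lower). Their median log2 change was 0.91 with Pb OS, 1.03 with Sl OS and 0.40 with W. Both secretions raised 27 of them and lowered 6, against 12.4% and 13.1% of all genes. Some of the 69 passed the filter only through treated libraries. UGT73C1, UGT76E3 and UGT91C1 had no control read, and UGT76E12 and UGT76E4 had 2 and 4 reads over the control group. Such genes could only be called higher, so these counts are descriptions. UGT76E12 had the largest change, with 134 CPM with Pb OS, 174 CPM with Sl OS, 12.1 CPM with W and 2 reads over the control group (group means). UGT73C1, which can glucosylate cytokinins and trinitrotoluene products, averaged 3.76, 5.96 and 0.642 CPM with Pb OS, Sl OS and W and had no control read (at least 122-fold, 205-fold and 18.5-fold higher). UGT76E3 averaged 5.56, 5.75 and 0.120 CPM, also with no control read (over the group at least 190-fold and 191-fold higher with Pb OS and Sl OS), but Pb OS libraries ran from 0 to 454 reads. UGT85A1, which can glucosylate zeatin, reached 149 CPM with Pb OS and 220 CPM with Sl OS, against 14.5 CPM with W and 4.55 CPM in control. UGT73C3 rose by 6.35 and 7.29, and UGT76E4 by 3.63 and 5.05 on the log2 scale, with Pb OS and Sl OS.

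Within families, both secretions raised 4 of 6 measured UGT73C genes, 5 of 7 UGT76E genes, 3 of 6 UGT85A genes and 3 of 4 UGT84A genes, beside 12.4% of all genes. The family counts are descriptions too, because UGT73C1, UGT76E3, UGT76E4 and UGT76E12 held at most 3 reads in any control library. The UGT85A and UGT84A families each also held 1 gene lowered by both. Other families had fewer rises, with 2 of 5 UGT71B, 1 of 3 UGT79B, 0 of 3 UGT71C and 0 of 3 UGT76C genes. The largest falls with both secretions were those of UGT76C5, which can glucosylate nicotinate (-1.91 and -1.76 with Pb OS and Sl OS), UGT84A4, which acts on hydroxycinnamic acids (-1.81 and -1.84), UGT72D1 (-2.16 and -1.48) and UGT85A4 (-1.87 and -1.69), with limma adjusted p from 3.04e-06 to 0.00436. Counts among the 69 at 24 h are descriptions as well, because UGT76E4, UGT76E12 and UGT91C1 held at most 3 reads in any control library. Beside rises called in 1.62% (Pb OS) and 2.28% (Sl OS) of all genes, Pb OS still gave 4 calls and Sl OS 8, all of them higher. Among them the largest changes were those of UGT76E12 (group totals of 105 reads for Pb OS and 165 for Sl OS, limma adjusted p = 0.000634 and 6.1e-05), UGT76E4 (log2 change 3.39 and 3.78, adjusted p = 0.0271 and 0.00817) and UGT91C1 (33 reads with Pb OS and 54 with Sl OS against 0 in control, adjusted p = 0.124 and 0.0155).

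**Figure D4:**
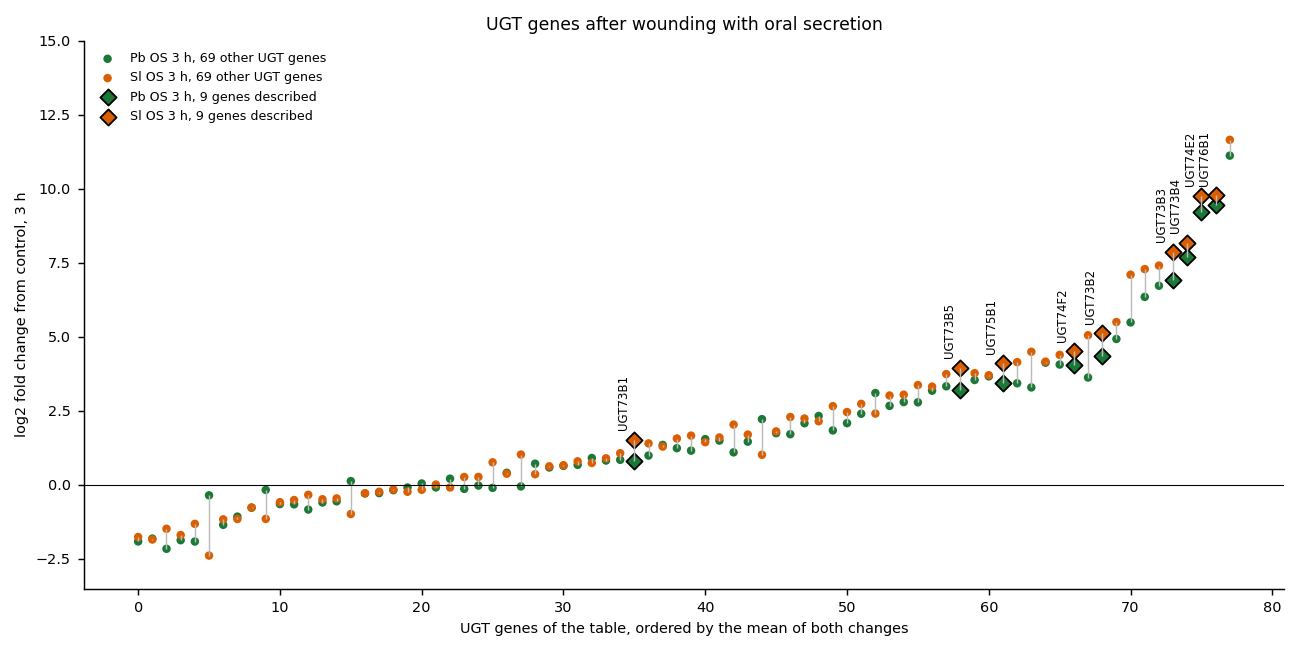
Log2 fold change from control at 3 h with Pb OS and with Sl OS for the 9 and the 69 other UGT genes of the table, ordered by the mean of both changes, with the 9 genes described here as diamonds. UGT76B1 and UGT74E2 follow UGT76E12 at the upper end, and UGT73B1 (0.82 and 1.51) lies in the middle.

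Genes of the processes in which these enzymes are known to take part were taken from 3 short lists. Of 17 genes for the response to electrophiles and foreign compounds, 13 rose with Pb OS, 14 with Sl OS and 10 with W at 3 h, and none fell (median log2 change 3.52, 4.01 and 1.66). The shares over all genes were 13.3%, 14.6% and 3.88% called higher and 14.6%, 16.3% and 0.413% called lower. The largest were the chloroplast aldo-keto reductase gene ChlAKR (AT2G37770; 10.03, 10.34 and 8.15 with Pb OS, Sl OS and W), CYP81D11 with 2362, 3440 and 115 reads per group and none in control, and the transporter gene ABCG40 (7.17, 7.90 and 4.73). The genes for the regulators SCL14, TGA2 (AHBP-1B) and TGA6, which are known to activate several of these genes, had changes from -0.29 to 0.12 with the secretions, and only TGA5 (OBF5) passed (1.42 and 1.41). At 24 h 7 of the 17 were called with Pb OS, 8 with Sl OS and 4 with W, beside 1.62%, 2.28% and 1.4% of all genes called higher. By voom on the recovered reads 3, 8 and 1 were called.

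Of the 5 measured genes of the mitochondrial stress regulon, to which UGT74E2 is also known to belong, 4 rose with each secretion at 3 h, with median log2 changes of 1.15 with Pb OS and 1.39 with Sl OS. With W 0 were called by limma or voom and 1 was at an unadjusted p under 0.05 (median 0.37). The 4 genes that rose with the secretions were NDB2 (2.92 and 3.31 with Pb OS and Sl OS), BCS1 (1.97 and 1.62), NAC13 (1.15 and 1.39) and AOX1A (1.08 and 1.36). Of 8 genes for SA and N-hydroxypipecolic acid, the acceptors of UGT76B1 and UGT74F2, 2 rose with Pb OS (EDS5, the SA precursor exporter, 1.80, and EPS1, 2.42) and 5 with Sl OS (also FMO1, 4.25, ALD1, 4.18, and SARD4, 1.06), of which voom called 2 and 3 genes. Beside the same shares of 13.3% and 14.6% of all genes, 2 of 8 with Pb OS is not a result about this list. The SA synthesis gene ICS1 (EDS16) had -0.94 and -1.14 and was not called, nor was PR1 (2.12 and 3.59). FMO1 and ALD1 had 49 and 315 reads in control replicate 2, against 0 to 1 and 0 to 19 reads in the other controls.

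The genes most like the mean profile of the 9 (z-scored log2 CPM over the 27 libraries) were PGIP1, an inhibitor of fungal polygalacturonases (Pearson r = 0.986), AT4G01870 (0.978), the glutathione transferase gene GSTU7 (0.975), AER, which reduces reactive alkenals (0.974), and AT5G19440 (0.973). On the log2 scale PGIP1 changed by 2.98, 3.25 and 1.07 and AT4G01870 by 5.47, 5.88 and 2.04 with Pb OS, Sl OS and W at 3 h, beside medians of 4.37, 5.12 and 1.51 for the 9. The 27 points share 7 groups, so that r mostly reflects the group means. Among the 9 themselves r with this mean profile was 0.922 to 0.976, and 0.727 for UGT73B1. Each of the 9 is part of that mean, which raises its r, so these values do not compare with those of the other genes.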

How the data were processed

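The authors trimmed reads with Cutadapt 2.5, aligned them with STAR 2.5.3a to TAIR10, counted reads per gene with HTSeq 0.9.1, and deposited log2 CPM values (TMM scaling, prior count 1) after removal of batch effects. A batch correction of this kind lowers the spread within groups. A second deposited table, of the authors' log2 fold changes and adjusted p-values, was not used. Whole reads were recovered from the values (all 18899 genes within 0.02 reads) and were used for levels near 0. The authors describe a correction with 4 batches, by replicate number. The deposited values instead balanced over replicates 1 and 2 against 3 and 4, with the W 3 h libraries standing for replicates 1, 3 and 4. The means of these 2 pairs of batches differed by at most 3.29e-09 log2 units for any gene, so the pair was a term of the model. Changes were tested with limma 3.58.1 in R 4.3.3 on the log2 CPM of all 27 samples, with adjustment over all genes. The recovery of reads and the limma fit were first tested on simulated data. The limma simulation had no batch effect and used modest changes in genes with clear read counts. It therefore does not cover genes near 0 reads or the batch correction. The p-values measure the spread between replicates that the study calls independent.

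Named genes are all members, the other UGT genes with the largest changes called with both secretions at 3 h (6 rises, 4 falls) or at 24 h (3), the 5 genes most like the members, and the 3 genes per list with the largest changes. Other genes named from the lists were chosen after their values were seen. The members and lists were chosen with earlier results of these data known. Reads of overlapping or near-identical genes could be split by the counting. Alternatives were no replicate block, a block by label number, limma without trend, 5 CPM added, a filter on mean level, only the groups compared, each replicate left out, and, chosen after seeing the data, voom on recovered reads, the block by time, and replicate 2 of both OS groups at 3 h left out.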

Additional observations from a re-analysis of the deposited data

Results flagged for a closer look

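Each of the 9 genes was tested for a single outlying library in each group of 4 libraries. Of these 54 sets, 5 held one, where chance gives about 1 in 20 for a single set. The 9 genes share the same libraries, so the 54 sets are not independent and this count is a description. UGT73B2 in control replicate 2 (7.62 CPM, 191 reads) lay apart by 0.884 of the group's range. Sl OS 3 h replicate 2 lay apart upwards for UGT74F2 (879 CPM, 0.853 of the range) and UGT75B1 (390 CPM, 0.944 of the range). UGT74F2 in Sl OS 24 h replicate 1 (42.4 CPM, 0.865 of the range) and UGT75B1 in Pb OS 24 h replicate 4 (19.6 CPM, 0.866 of the range) lay apart upwards as well.

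The effect of secretion relative to W differed between 24 h and 3 h by the test of the difference for 5 genes. On the log2 scale, 24 h minus 3 h, it was -2.56 for UGT73B2, -3.14 for UGT73B3, -2.70 for UGT73B5, -2.44 for UGT74F2 and -2.21 for UGT75B1 with Pb OS, and -2.67, -3.24, -2.95, -2.78 and -2.87 for the same 5 genes with Sl OS.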

How the results depend on the processing

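With either secretion at 3 h against control or W, and at 24 h against 3 h, every alternative gave between 7 and 9 calls. With 5 CPM added, and likewise with voom on recovered reads, 0 genes were called with W at 3 h, Pb OS at 24 h and Sl OS at 24 h against control, for Sl OS against W at 24 h, and for W at 24 h against 3 h. With 5 CPM added, a gene under 5 CPM cannot reach a log2 change of 1 from control. UGT73B3, UGT73B4 and UGT74E2 averaged at most 2.45 CPM in these 3 groups compared with control, so that setting could not keep their calls there. The cause of the other losses was not tested. With 5 CPM added, 8 instead of 5 genes were called for the change of each OS against W contrast between 24 h and 3 h. For Pb OS at 24 h, 1 instead of 2 genes was called with a replicate block by label number, without trend, with a filter on mean level over 0 log2 CPM (which removes UGT73B4 and tests fewer genes) and in a fit of only the groups compared, where Sl OS at 24 h had 2 instead of 4. With the block by time, 4 genes were called for Pb OS at 24 h and 2 for Sl OS against W at 24 h. With single libraries left out, the calls numbered 0 to 2 for W at 24 h (2 without control replicate 2), 1 to 3 for Pb OS at 24 h (1 without control replicate 1, 3 or 4 or Pb OS replicate 2, 3 or 4), 0 to 1 for Sl OS against W at 24 h, 1 to 3 for W at 24 h against 3 h and 1 to 5 for the change of Pb OS against W.

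In the batch-corrected values same-numbered replicates did not deviate together (mean r of -0.085 to -0.0588 per number, single pairs from -0.47 to 0.58). The correction had already removed what replicates 1 and 2, or 3 and 4, shared, so this check cannot show that same-numbered samples were unrelated. The numbers were not used to pair samples. Without the replicate block in pairs all counts of calls stayed within 1.5 times: 4, 8 and 9 genes for W, Pb OS and Sl OS at 3 h. No called change turned its direction under any alternative run. The count test planned with edgeR and DESeq2 was not run, because the deposited values are log2 CPM. Depth limits UGT74E2, UGT73B4, UGT73B3 and UGT76B1 in control and at 24 h, where libraries held 0 to 99 reads.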
